A study of Homo sapiens with 6 samples.

Results

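The genes described here are 10 members of the metalloproteinase system: the collagenase MMP1, 5 other matrix metalloproteinases (MMP2, MMP3, MMP10, MMP14 and MMP15), the sheddase ADAM17 and the tissue inhibitors TIMP1, TIMP2 and TIMP3. They are 10 of 62260 gene rows, found by symbol, and each symbol matched 1 row. MMP1 and TIMP1 were picked because they differed between the groups compared below. Their values are therefore a description: where the fit over all genes places them past its threshold, that restates the choice and supports nothing. The other 8 were taken as members of the same families.

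RNA from TYK-nu, which the labels describe as a human ovarian cancer cell line, was sequenced from wild-type cells (WT) and from cells with a knockout of ZNFX1 (ZNFX1 KO), 3 libraries each. The product of ZNFX1 is a zinc finger helicase that is known to sense viral RNA. Cells of both groups received no drug, grew in RPMI-1640 with serum and antibiotics, and belong to batch 1. The labels call the libraries biological replicates without saying whether the cultures were separate, so a p-value here measures only the spread among libraries, which may be technical. How the knockout was made and how many clones it comprises are not given, so the loss of ZNFX1 and any further difference of the knockout line from WT cannot be told apart.

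Matrix metalloproteinases are zinc enzymes that cut collagens and other proteins outside the cell. Most are secreted, or placed in the membrane, as inactive precursors that need a cut in the propeptide. MMP1 opens the triple helix of fibrillar collagens, stromelysins such as MMP3 and MMP10 cut many matrix proteins and can activate other precursors, and MMP14 works at the cell surface. TIMPs bind the active site of the mature enzymes, and TIMP3 also inhibits ADAM17, which releases membrane-bound growth factors and cytokines. In ovarian carcinoma this system is known for its part in invasion of the peritoneum.

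The shared catalytic core of the enzymes can be read in the coding bases of the zinc-binding motif, shown because it is the site the family has in common. Sequences were read from GENCODE 29 transcripts (GRCh38) and are written 5′ to 3′ on the coding strand. Capitals mark the codons of the zinc-binding histidines. Each stretch is 33 bases long and lies within a single coding exon.
MMP1: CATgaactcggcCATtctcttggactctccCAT
MMP3: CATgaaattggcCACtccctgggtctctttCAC
MMP10: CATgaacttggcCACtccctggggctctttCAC
MMP2: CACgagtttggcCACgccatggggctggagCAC
MMP14: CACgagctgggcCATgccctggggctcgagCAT
MMP15: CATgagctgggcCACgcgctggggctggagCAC
ADAM17: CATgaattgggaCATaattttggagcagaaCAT
The stretch of MMP1 lies in exon 5 of 10 at chr11:102795549-102795581, on the minus strand. Of its 33 bases, 25 were the same in MMP10, 24 in MMP3, 23 in MMP14, 21 each in MMP15 and ADAM17, and 18 in MMP2.

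The inhibitors share the start of the mature protein, whose first cysteine reaches the zinc of the enzyme. Its 27 coding bases are shown with the first cysteine codons in capitals.
TIMP1: TGCaccTGTgtcccaccccacccacag
TIMP2: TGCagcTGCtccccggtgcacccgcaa
TIMP3: TGCacaTGCtcgcccagccacccccag
The stretch of TIMP1 lies in exon 2 of 6 at chrX:47583485-47583511, on the plus strand. It had 18 bases in common with TIMP3 and 17 with TIMP2.

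Over whole transcripts, the words of 31 bases that a gene shares with any other gene show where reads could be assigned to either. Of the 1940 such words of MMP1, 94 were shared, and only with WTAPP1, a pseudogene on the opposite strand that overlaps MMP1. WTAPP1 had at most 4 reads in any library. MMP10 shared 125 of 1756 words, all with MMP3, and MMP3 shared 128 of 2047, with MMP10 and WTAPP1. TIMP1, TIMP3, MMP14 and MMP15 shared 0. ADAM17 shared 16.5% and TIMP2 9.87% of their words with other genes, so their values are less certain in this respect.

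The libraries held 21413002 to 23494771 assigned fragments, of which 19115530 to 21036063 fell on gene rows and 9.93% to 10.7% on separate transcript rows. Mitochondrial genes took 10.3% to 15.5% of the gene fragments, most in ZNFX1 KO 2. The targeted gene ZNFX1 averaged 149 ± 52.2 CPM (gene-row fragments scaled to a common library size with TMM factors) in the WT libraries and 82.7 ± 17.3 in the KO libraries (SD, n = 3 each), with edgeR adjusted p = 0.218. Per library it was at 129.7, 208 and 109 CPM in WT and at 103, 70.5 and 75.2 CPM in the KO, so its transcript was still read in all KO libraries. Of 9 ovarian carcinoma markers, MUC16 had 0 reads, PAX8, MSLN and KRT7 were at 0 CPM in WT and at most 0.0348 CPM on average in the KO, and the gene WT1 averaged 5.24 CPM in WT against 5.82 in the KO. KRT18 and KRT8, keratins of simple epithelia, were the most abundant of the list, at 103 and 24.4 CPM in WT and 151 and 14.7 CPM in the KO on average. The groups of KRT18 did not overlap, with the KO higher (log2 fold change 0.55, SE 0.22, edgeR adjusted p = 0.290). EPCAM, too low to be tested, averaged 1.18 CPM in WT and 0 in the KO. KRT19 averaged 1.79 CPM in WT against 0.692 in the KO without overlap, and 0 of the 4 tested genes of the list passed (edgeR). Of 9 fibroblast markers, all but THY1 and FAP stayed under 1 CPM in every library. The summed fibroblast list was 77.6 to 86.8 CPM in WT and 90.2 to 99.9 CPM in the KO, nearly all THY1, and without THY1 it reached at most 1.82 CPM. Of 8 leukocyte markers, PTPRC and CSF1R had 0 reads, and the sum, mostly CD68, was 213 to 479 CPM in WT and 174 to 282 CPM in the KO. LYZ, the other tested leukocyte marker, was at 0.460, 1.01 and 2.83 CPM in WT and at 8.16, 2.92 and 2.97 CPM in the KO, without overlap, and did not pass (log2 fold change 1.696, SE 0.66, edgeR adjusted p = 0.293). The part of these markers in the results below was not tested.

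Per transcript length, TIMP1 was the most abundant member in WT and MMP1 in the KO. Levels are in TPM, the deposited unit that sets fragments against transcript length, which allows genes to be compared. The order in WT was TIMP1, MMP14, MMP1, ADAM17, TIMP2, MMP10 and MMP15, with MMP2, MMP3 and TIMP3 at or near 0. The ranges of MMP14 and MMP1 overlapped in WT, as did those of MMP10 and MMP15. In the KO the order was MMP1, MMP14, TIMP1, ADAM17, TIMP2, MMP10 and MMP15, and no 2 neighbours among these 7 overlapped. The lowest KO value of MMP14 (159.5 TPM) lay only just above the highest of TIMP1 (156 TPM). By mean TPM among 19795 protein-coding genes, MMP1 ranked 371st in WT and 10th in the KO. TIMP1 ranked 110th in WT and 335th in the KO, and MMP14 ranked 230th and 213th.

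**Figure D1:**
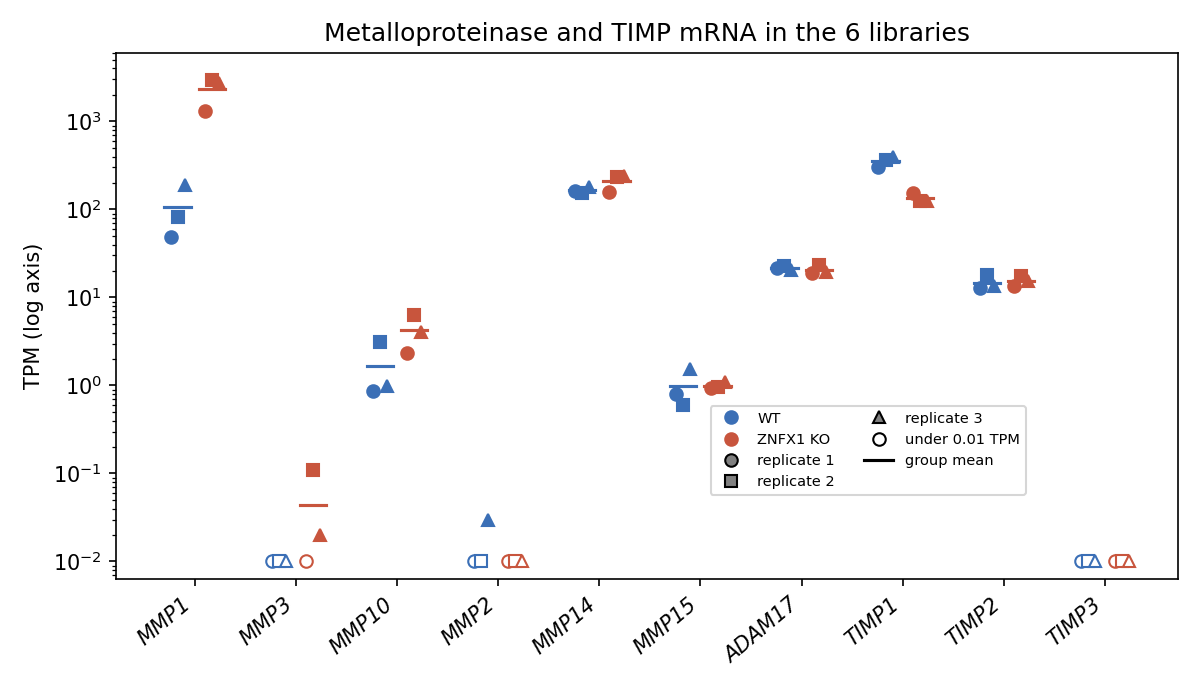
TPM of the 10 members on a log axis. Each point is 1 library (blue WT, red ZNFX1 KO, shape by replicate), lines are group means where these are at least 0.01 TPM, and open points on the floor are values under 0.01 TPM. MMP1 lies higher and TIMP1 lower in all 3 KO libraries, while the ranges of the other members overlap between groups.

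MMP1 (ENSG00000196611.6, chromosome 11, 102789920 to 102798160, minus strand, GRCh38) was at 48.2 TPM in WT 1, 82.9 in WT 2 and 192 in WT 3. In ZNFX1 KO 1, 2 and 3 it was at 1309.6, 2977 and 2734 TPM. Every KO library lay far above every WT library, and the lowest KO value was 6.83 times the highest WT value. Within groups the spread was also wide, with ZNFX1 KO 1 lowest of the KO libraries and WT 1 lowest of the WT libraries. The group means were 108 ± 74.9 TPM in WT and 2340.3 ± 901 TPM in the KO (SD, n = 3 each). In the fit on counts the log2 fold change was 4.47 (SE 0.48), and the ratio of mean CPM was 22.1. The gene took 0.0148% to 0.0479% of the gene fragments in WT and 0.393% to 0.764% in the KO. All of its fragments were on the gene row. In these bulk libraries more cells with MMP1 mRNA and more MMP1 mRNA per cell cannot be told apart.

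MMP10 and MMP3, the stromelysins, lie on either side of MMP1 in the same chromosome 11 cluster. MMP10 (ENSG00000166670.10, 102770503 to 102780628, minus strand) was at 0.858, 3.11 and 0.991 TPM in WT 1, 2 and 3, and at 2.32, 6.32 and 4.08 TPM in KO 1, 2 and 3. The groups overlapped, because WT 2 lay above ZNFX1 KO 1. The difference of 1.23 in log2 units (SE 0.55) missed the threshold (edgeR adjusted p = 0.334), and MMP10 was called in 0 of 18 alternatives (adjusted p 0.0700 to 0.646). Without WT 2 the log2 fold change was 2.18. MMP3 (ENSG00000149968.12, 102835801 to 102843803, minus strand) had 0 reads on its gene row in each WT library and in ZNFX1 KO 1, 5 reads in KO 2 and 1 in KO 3. A coding transcript of MMP3, listed on a row of its own, had 1 read in WT 3. In all, 85.7% of the MMP3 fragments were on the gene row. A count of 0 allows up to 0.157 CPM (3 reads) in WT 2, the shallowest library. Limits of this kind cover counting error only. MMP3 was too low to be tested, and no fold is given.

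MMP14 (ENSG00000157227.14, chromosome 14, 22836557 to 22849027, plus strand), the membrane-type enzyme that activates MMP2 precursor at the cell surface, was abundant in all libraries. It was at 161, 153 and 179 TPM in WT 1, 2 and 3, and at 159.5, 233 and 238 TPM in KO 1, 2 and 3. KO 2 and KO 3 lay above every WT library and KO 1 did not. The log2 fold change of 0.34 (SE 0.19) did not pass (edgeR adjusted p = 0.412). A transcript of MMP14 with a retained intron, listed on a row of its own, had 129.5 to 198 reads in WT and 121.5 to 155 in the KO. In all, 98.9% of the MMP14 fragments were on the gene row.

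MMP15 (ENSG00000102996.5, chromosome 16, 58025566 to 58046901, plus strand), a second membrane-type enzyme, was at 0.808, 0.602 and 1.55 TPM in WT and at 0.934, 0.959 and 1.09 TPM in the KO. Its KO range lay inside its WT range. The difference was 0.04 in log2 units (SE 0.30, edgeR adjusted p = 0.961). MMP2 (ENSG00000087245.13, chromosome 16, 55389700 to 55506691, plus strand), the gelatinase that cuts denatured collagen and basement membrane collagen, had 2 reads in WT 3 and 0 in the other 5 libraries. Its membrane activator was therefore read at 153 TPM or more in all 6 libraries, while MMP2 itself was close to undetected.

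ADAM17 (ENSG00000151694.15, chromosome 2, 9488486 to 9556732, minus strand) was at 21.7, 22.6 and 20.8 TPM in WT and at 19.2, 23.5 and 19.7 TPM in the KO. The groups overlapped. The difference was -0.10 in log2 units (SE 0.17, edgeR adjusted p = 0.804). Only 88.2% of its fragments were on the gene row, the rest being spread over rows for transcripts with retained introns, decay or processed forms. Its gene overlaps IAH1 on the opposite strand, which had 259 to 439.5 reads, and whether the counting used strand is not given in the sources used here. The log2 fold changes of all 4 tested partners and ligands of ADAM17 were negative (median -0.64, against -0.01 for all genes tested). Of the 4, 0 passed in either direction (edgeR), where 0.727% of all genes were called. At an unadjusted p under 0.05 there were 2 of 4, where 15.1% of all genes were. DESeq2, which called 579 genes in all, called 1 as lower, and limma-voom, which called 76, called 0. HBEGF, an EGF receptor ligand that is shed from the membrane, was at 146, 164 and 89.9 CPM in WT and at 62.9, 66.1 and 80.3 CPM in the KO. The groups of HBEGF did not overlap, and the difference was -0.93 in log2 units (SE 0.24, edgeR adjusted p = 0.145). FRMD8, which stabilises the ADAM17 complex, was at -0.21 (SE 0.20, edgeR adjusted p = 0.616). RHBDF1, an iRhom that carries ADAM17 to the cell surface and was chosen after its values were seen, was at -0.93 (SE 0.28, edgeR adjusted p = 0.193). RHBDF2, also looked at afterwards, was at -0.35 with overlapping groups (SE 0.37, edgeR adjusted p = 0.663). The sign of RHBDF2 changed among the alternatives (-0.54 to 0.08).

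TIMP1 (ENSG00000102265.12, chromosome X, 47582313 to 47586789, plus strand), the secreted inhibitor that blocks most soluble MMPs, was at 307, 367 and 399.7 TPM in WT 1, 2 and 3. In ZNFX1 KO 1, 2 and 3 it was at 156, 124 and 126 TPM. The KO libraries were all lower than the WT libraries, and the lowest WT value was 1.97 times the highest KO value. The group means were 358 ± 47.1 TPM in WT and 135 ± 17.9 TPM in the KO (SD, n = 3 each). The log2 fold change in counts was -1.41 (SE 0.20), and the ratio of mean CPM, WT over KO, was 2.66. TIMP1 lies inside SYN1 on the opposite strand, and SYN1 had 0 reads in all libraries.

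TIMP2 (ENSG00000035862.13, chromosome 17, 78852977 to 78925387, minus strand), which also forms the complex through which MMP14 activates MMP2, was at 12.9, 17.8 and 13.7 TPM in WT and at 13.5, 17.6 and 15.4 TPM in the KO. The KO range lay inside the WT range, and the difference in log2 units was 0.00 (SE 0.20, edgeR adjusted p = 0.997), which fell below 0 under 5 of 18 alternatives (3 scalings or filters and 2 left-out libraries). TIMP3 (ENSG00000100234.12, chromosome 22, 32801701 to 32863043, plus strand), the inhibitor held in the matrix, had 1 read in ZNFX1 KO 1 and 0 in the other 5 libraries. TIMP1 therefore made up 95.4% to 96.7% of the summed TPM of the 3 TIMPs in WT and 87.6% to 92.0% in the KO, with TIMP2 as nearly all of the rest.

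Set against each other within a library, which removes the scaling between libraries, there were 0.157, 0.226 and 0.480 TPM of MMP1 for each TPM of TIMP1 in WT 1, 2 and 3. In ZNFX1 KO 1, 2 and 3 there were 8.40, 24.1 and 21.7. TIMP1 thus exceeded MMP1 in all 3 WT libraries and MMP1 exceeded TIMP1 in all 3 KO libraries. The means were 0.288 ± 0.170 in WT and 18.1 ± 8.45 in the KO (SD, n = 3 each), a description since both genes were picked. MMP14 also changed place with TIMP1, lying below it in all WT libraries and above it in all KO libraries. In ZNFX1 KO 1 the gap was small, at 159.5 TPM of MMP14 against 156 of TIMP1. TIMP1 was picked for its difference, and that of MMP14 did not pass. Summed over the 6 MMP members, TPM was 275 ± 87.0 in WT and 2556 ± 946 in the KO, of which MMP1 made up 22.8% to 51.3% in WT and 88.9% to 92.5% in the KO. Without MMP1 the sum was 157 to 182 TPM in WT and 163 to 244 TPM in the KO, with overlapping ranges.

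**Figure D2:**
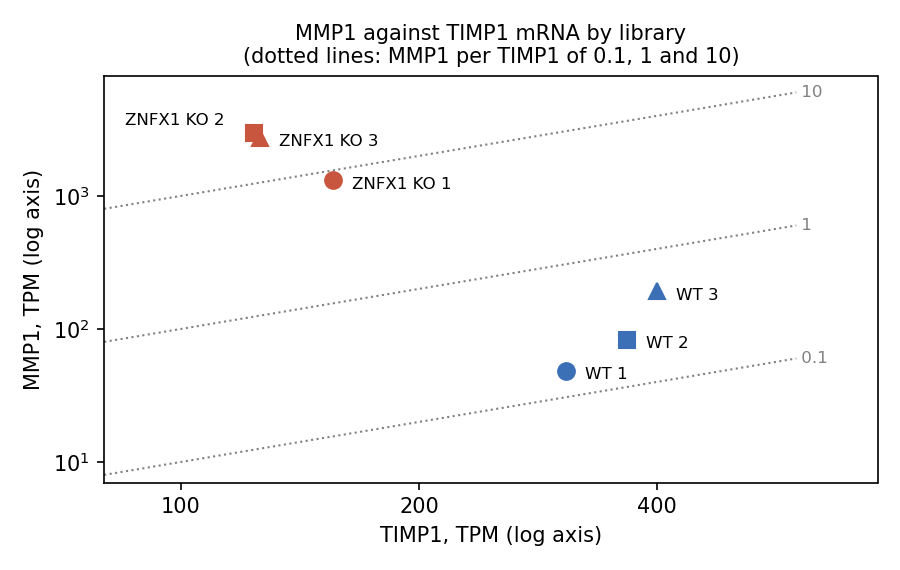
MMP1 against TIMP1 in TPM, both on log axes, 1 point per library, with dotted lines where MMP1 per TIMP1 is 0.1, 1 and 10. The WT libraries lie between 0.157 and 0.480 and the KO libraries between 8.40 and 24.1.

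Of the 10 members 7 were abundant enough to be tested. The fit placed MMP1 (higher) and TIMP1 (lower) past an adjusted p of 0.05, which restates how they were picked. Of the 14166 genes tested 0.727% were called, 0.268% as higher and 0.459% as lower. The CPM of the groups did not overlap for these 2 picked genes and overlapped for the other 5, non-overlap being a state found in 20.2% of all genes tested (9.39% with the KO higher, 10.8% with the KO lower). Of the 5 tested members that were not picked, 0 passed the edgeR test and 0 passed DESeq2 or limma-voom. At an unadjusted p under 0.05 (edgeR) there were 0 of the 5, against 15.1% of all genes, with MMP10 closest at 0.0516. The median log2 fold change of the 7 was 0.04, against -0.01 for all genes. With 1 library fewer the fit placed 0 members past the threshold without ZNFX1 KO 2 or without ZNFX1 KO 3, and MMP1 alone without WT 1 or without WT 2. Without each of these libraries the log2 fold change of MMP1 lay between 4.16 and 4.39 and that of TIMP1 between -1.45 and -1.27.

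Of 18 genes listed from the chromosomal neighbourhood of MMP1, 8 were tested. The list was chosen by hand and does not hold every gene of that stretch. Beside MMP1, which was picked for its difference, 0 of the other 7 passed in either direction (edgeR), where 0.727% of all genes were called. The median log2 fold change of the 8 was -0.04. MMP7, MMP20, MMP27 and MMP8 had 0 reads in all 6 libraries, MMP12 had 5 reads over all libraries and MMP13 had 2. MMP10 starts 17.5 kb from the start of MMP1 and MMP3 45.6 kb from it. Of the flanking genes on the side of MMP10, TMEM123 was at 0.38 (SE 0.29, edgeR adjusted p = 0.554), BIRC2, an inhibitor of apoptosis, at -0.62 (SE 0.32, edgeR adjusted p = 0.389) and its paralog BIRC3 at -1.66 (SE 0.59, edgeR adjusted p = 0.259). BIRC3 was at 116, 265 and 49.8 CPM in WT and at 24.2, 71.5 and 40.2 CPM in the KO, so that KO 2 lay above WT 3. YAP1, the Hippo pathway coactivator, was at -0.15 (SE 0.24, edgeR adjusted p = 0.790). On the other side, DCUN1D5 was at -0.26 (SE 0.38, edgeR adjusted p = 0.759) and DYNC2H1 at 0.08 (SE 0.26, edgeR adjusted p = 0.907). The values of YAP1, DCUN1D5 and DYNC2H1 changed sign under some alternatives.

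**Figure D3:**
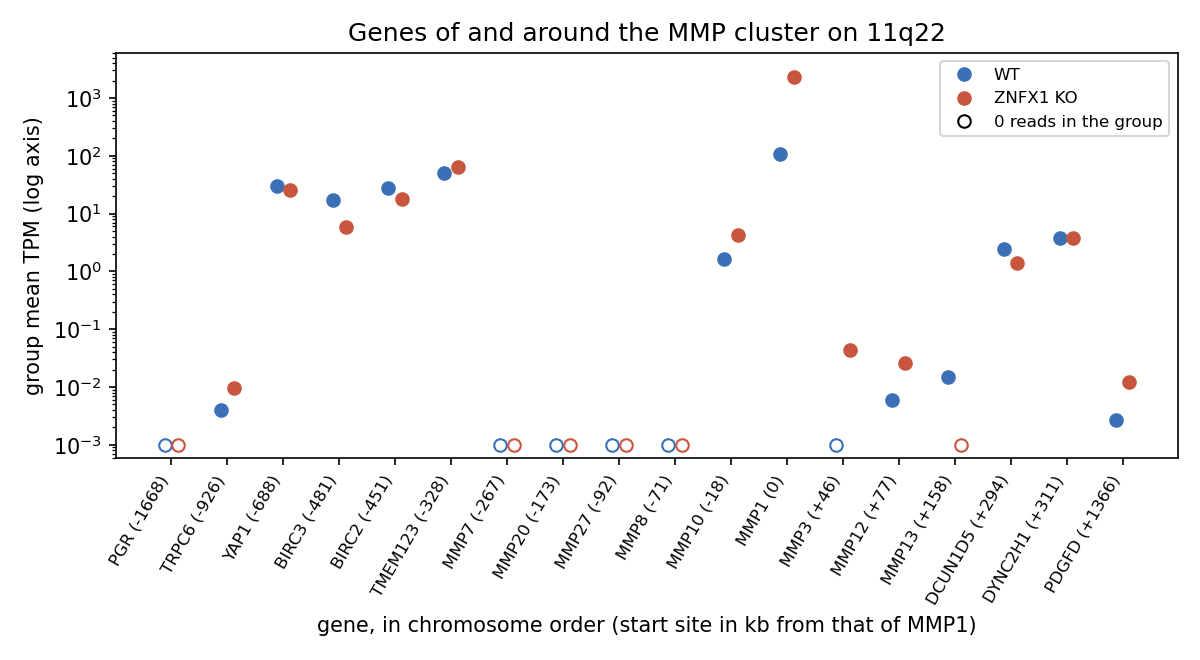
Group mean TPM on a log axis for genes of and around the MMP cluster, in chromosome order, with each start site in kb from that of MMP1. Blue is WT, red ZNFX1 KO, and open points on the floor are groups with 0 reads. MMP1 is the MMP gene with the highest mean TPM of the cluster in both groups, and 4 MMP genes have 0 reads.

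Promoters of 6 of the 10 members were in the RefSeq table (GRCh38.p14): MMP10, MMP14, MMP15, ADAM17, TIMP1 and TIMP3. The window searched was the 250 bases before the start. The AP-1 motif TGANTCA, which is palindromic, was found in 6.57% of all 35116 promoters, TATAAA on the sense strand in 6.80%, and the GC box GGGCGG on either strand in 42.6%. MMP10 held TGANTCA and TATAAA, and the other 5 promoters held GGGCGG and neither of the first 2 motifs. MMP7, a cluster gene with 0 reads, had the same layout as MMP10, and both are shown over the 150 bases before the start to allow that comparison. Capitals mark TGANTCA and TATAAA. The window of MMP10 is chr11:102780629-102780778 and that of MMP7 is chr11:102530748-102530897, both on the minus strand and written 5′ to 3′.
MMP10: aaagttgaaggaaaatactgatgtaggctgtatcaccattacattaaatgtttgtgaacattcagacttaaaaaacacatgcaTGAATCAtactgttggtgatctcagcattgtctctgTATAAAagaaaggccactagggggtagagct
MMP7: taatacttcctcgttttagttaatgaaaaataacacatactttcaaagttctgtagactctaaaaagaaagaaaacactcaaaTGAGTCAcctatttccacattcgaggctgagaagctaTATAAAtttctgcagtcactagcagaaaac
MMP20, also with 0 reads, held both motifs at 112 and 72 bases before its start. In MMP10 and MMP7, TGANTCA begins 67 bases before the start, and TATAAA begins 31 bases before it in MMP10 and 30 in MMP7. A match is a description of letters and not of a bound site.

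Factors of the AP-1, ETS and RUNX families, known to bind collagenase and stromelysin promoters, showed 0 of 14 tested genes rising and 0 falling (edgeR, median log2 fold change -0.14, against -0.01 for all genes). In the same fit 0.727% of all genes were called. At an unadjusted p under 0.05 there were 5 of 14, where 15.1% of all genes were. Of these 5, ETS2 was higher in the KO, and JUNB, FOS, ATF3 and ELK1 were lower. DESeq2, which called 579 genes in all, called 1 factor higher and 1 lower, and limma-voom 0. ETS1 was the most abundant at 446 ± 15.0 CPM in WT against 457 ± 94.3 in the KO, a difference of 0.04 in log2 units (SE 0.20, edgeR adjusted p = 0.943). FOSL1, an AP-1 subunit, was at 197 ± 49.0 and 192 ± 36.6 CPM, with -0.04 (SE 0.23, edgeR adjusted p = 0.954), and both ETS1 and FOSL1 changed sign under some alternatives. The factors called by DESeq2 were looked at afterwards. ETS2 was at 27.1, 38.9 and 79.97 CPM in WT and at 71.0, 138 and 133 CPM in the KO, overlapping through WT 3 and KO 1 (edgeR log2 fold change 1.23, SE 0.41, adjusted p = 0.236). JUNB, an AP-1 subunit, was at 62.6, 99.3 and 33.2 CPM in WT and at 31.2, 25.8 and 31.7 CPM in the KO, without overlap (edgeR log2 fold change -1.14, SE 0.35, adjusted p = 0.202). FOS, ATF3 and ELK1 were likewise looked at afterwards. FOS was at -0.62 (SE 0.27, edgeR adjusted p = 0.322) and ATF3 at -1.02 (SE 0.41, edgeR adjusted p = 0.303), both with overlap. ELK1 was at -0.40 without overlap (SE 0.16, edgeR adjusted p = 0.306).

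Many genes of the wider families were not read at all. Of 17 other MMP genes 6 had 0 reads, 3 reached a mean of 1 TPM and 5 were tested, of which 0 passed in either direction (edgeR, median -0.57), 0 had an unadjusted p under 0.05, and 0 were called by DESeq2 or limma-voom. MMP24, a membrane-type enzyme, was at 24.9 ± 4.52 CPM in WT against 29.9 ± 3.99 in the KO (0.26 in log2 units, SE 0.20, edgeR adjusted p = 0.541). MMP11, a stromelysin activated inside the cell, was at 15.9 ± 4.53 and 10.7 ± 3.37 CPM (-0.57, SE 0.29, edgeR adjusted p = 0.392). Of 20 other ADAM genes 8 had 0 reads and 9 were tested, with 0 passing (edgeR, median 0.14), 1 at an unadjusted p under 0.05 and 0 called by DESeq2 or limma-voom. ADAM9 was at 341 ± 26.0 and 339.9 ± 52.3 CPM (0.00, SE 0.18, edgeR adjusted p = 0.996, with a sign that changed among the alternatives), and ADAM15 at 83.7 ± 12.9 and 126 ± 35.5 CPM (0.59, SE 0.23, edgeR adjusted p = 0.296). Of 19 ADAMTS genes 4 had 0 reads and 5 were tested, with 0 passing (edgeR, median 0.54), 3 of 5 at an unadjusted p under 0.05 (15.1% of all genes) and 0 called by DESeq2 or limma-voom. ADAMTS1, which cuts proteoglycans, was at 59.4 ± 32.9 and 86.2 ± 16.4 CPM (0.54, SE 0.36, edgeR adjusted p = 0.498). ADAMTS13, the von Willebrand factor protease, was at 6.28 ± 3.03 and 2.997 ± 0.623 CPM (-1.06, SE 0.41, edgeR adjusted p = 0.285). The 3 with a low unadjusted p were ADAMTS13, ADAMTS10 and ADAMTS6, the last 2 looked at afterwards. ADAMTS10 was lower in the KO without overlap (-1.66, SE 0.46, edgeR adjusted p = 0.168). ADAMTS6 was higher with overlap (1.08, SE 0.41, edgeR adjusted p = 0.284).

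Other inhibitors and activators of metalloproteinases had 5 of 11 genes tested and 0 passing in either direction (edgeR, median 0.13), where 0.727% of all genes were called. At an unadjusted p under 0.05 there were 3 of 5 (15.1% of all genes). DESeq2, which called 579 genes in all, called 1 as higher, and limma-voom, which called 76, called 0. PLAT, a plasminogen activator upstream of plasmin, which can activate MMP precursors, was at 14.7, 1.42 and 5.61 CPM in WT and at 16.5, 259 and 438 CPM in the KO. The groups did not overlap, but KO 1 was close to WT 1 while KO 2 and KO 3 were far above all others, and the log2 fold change of 5.04 (SE 1.18) did not pass (edgeR adjusted p = 0.116). PLAU, the other plasminogen activator and chosen after its values were seen, was at 13.3, 30.96 and 15.1 CPM in WT and at 1.17, 9.38 and 8.50 CPM in the KO. Its groups did not overlap either, in the opposite direction, and it did not pass (log2 fold change -1.64, SE 0.64, edgeR adjusted p = 0.291). RECK, an inhibitor on this list and likewise chosen afterwards, was the remaining gene with a low unadjusted p. Every KO library of RECK lay above every WT library, the closest being KO 3 (5.89 CPM) and WT 3 (5.56 CPM). RECK did not pass (log2 fold change 0.60, SE 0.26, edgeR adjusted p = 0.329). BSG, a membrane protein known to induce MMPs, was at 301 ± 25.9 and 330.3 ± 61.5 CPM (0.13, SE 0.19, edgeR adjusted p = 0.757). TIMP4, the remaining member of the TIMP family, had 1 read in ZNFX1 KO 1 and 0 in the other 5 libraries. The fibrillar collagens of a further list, which also holds F2R, were barely read. Of the 8 genes of that list 2 were tested and 0 passed (edgeR, median -0.29, 0 at an unadjusted p under 0.05, 0 by DESeq2 or limma-voom). COL5A2 was at 1.67 ± 0.520 and 1.16 ± 0.261 CPM, COL1A1 at 0.0930 and 0.0828 CPM, and COL3A1 had 1 read in all. F2R, a thrombin receptor that MMP1 is known to cleave, was at 111 ± 8.13 and 106 ± 17.7 CPM (-0.07, SE 0.18, edgeR adjusted p = 0.878, above 0 without ZNFX1 KO 1).

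**Figure D4:**
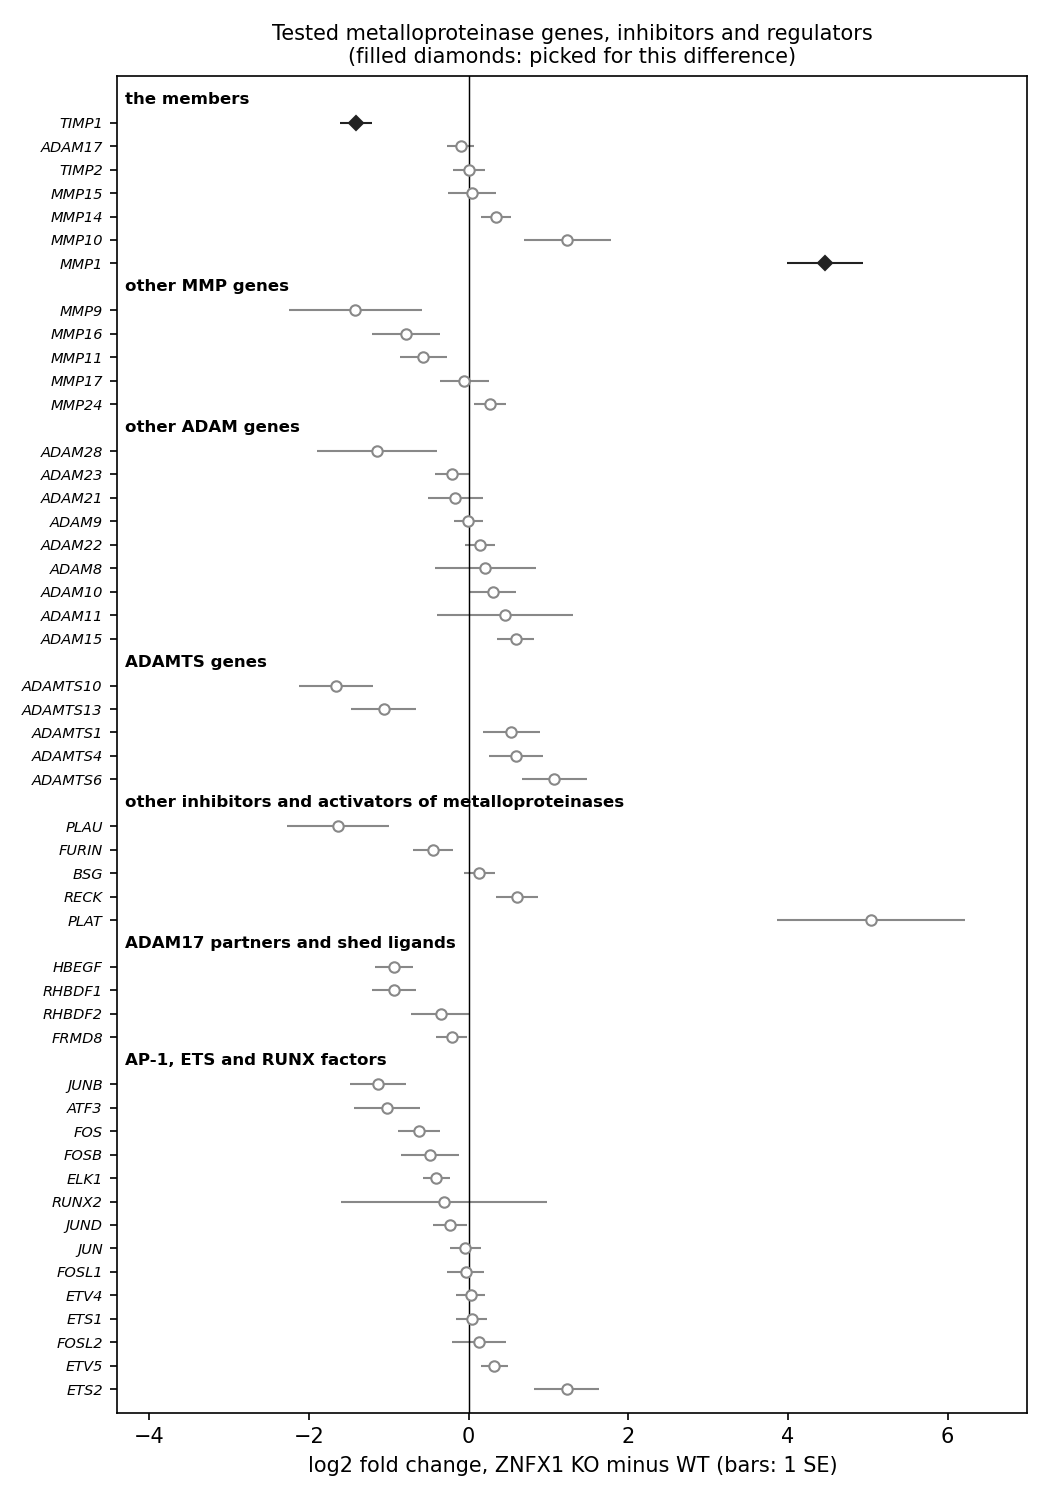
Log2 fold change of ZNFX1 KO minus WT, with bars of 1 SE, for tested members and for tested genes of 6 related lists. Filled diamonds are MMP1 and TIMP1, which were picked for this difference, and open circles are all other genes, of which 0 passed an edgeR adjusted p under 0.05.

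The genes whose profile over the 6 libraries was most like that of MMP1 were found by the root mean square difference of log2-CPM after centring each gene, among 10511 genes with an average of at least 2 on that scale. They were SPP1 (difference 0.79), SERPINB2 (0.81), TMEM171 (0.85), FAM167A (0.89) and VSTM1 (0.94). SPP1, which encodes osteopontin, was at 1.48, 3.14 and 8.75 CPM in WT 1, 2 and 3 and at 29.7, 29.9 and 35.9 CPM in the KO. Like MMP1 it was lowest in WT 1 and highest of the WT libraries in WT 3. SERPINB2, an inhibitor of plasminogen activators, had its lowest KO level in KO 1, as MMP1 did. For TIMP1 the closest were BMP6 (0.15), a bone morphogenetic protein, then ARMCX5 and GSTO2 (0.16 each), HCN2 (0.16), a channel subunit, and CEP126 (0.17). The smaller differences for TIMP1 go with its smaller range. These neighbours were selected on the same 6 libraries, so their fold changes are no separate evidence.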

How the data were processed

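Total RNA of 6 TYK-nu libraries (3 WT, 3 ZNFX1 KO, grouped by the genotype label) was made into stranded total RNA libraries and quantified with Salmon, per the labels. Estimated counts, TPM and effective lengths were deposited by the authors for 197169 rows per library. FastQC, Trimmomatic and DESeq2 are also named, per the submitters' processing notes. For the genome build, annotation and strand setting nothing is given in the sources used here. The 62260 gene rows were used, and 134909 rows for single transcripts were left out, except in an alternative that joined 103521 of them to their genes. TPM was used as deposited, over both kinds of row.

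Estimated counts were rounded and tested with edgeR 4.0.16 in R 4.3.3 (TMM scaling, filterByExpr, quasi-likelihood test, two-sided), with Benjamini-Hochberg adjustment over the 14166 genes tested and a threshold of 0.05. The SE was the log2 fold change divided by the root of F. In simulated data 27% of 2-fold and 90% of 4-fold changes were recovered over 13891 genes. No 2 libraries agreed within sampling noise. DESeq2 1.42.0, limma 3.58.1 (voom, and log2 of TPM with pseudocounts of 1 and 0.1), other scalings and filters, an effective length offset, a replicate block and leaving out each library were the 18 alternatives.

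The members and gene lists were chosen with earlier results of these data known. Genes were named by rule: ZNFX1, the members, cluster genes with at least 10 fragments in a library, up to 3 called genes per direction of each other list or else its 2 most abundant tested genes, and the 5 genes nearest in profile to MMP1 and to TIMP1. Coordinates come from GENCODE 29 (GRCh38), matched by unversioned gene identifier, and promoters from RefSeq (GRCh38.p14).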

Additional observations from a re-analysis of the deposited data

How the results depend on the processing

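Against 103 genes called, the count was 602 with no filter, 579 with DESeq2, 48 and 66 with limma on log2(TPM + 1) and log2(TPM + 0.1), and 187 with transcript rows joined. Leaving out 1 library gave 2 to 1315 genes, being 24, 57 and 1315 when WT 1, 2 or 3 was left out and 2 or 7 when ZNFX1 KO 2 or 3 was, and 0 to 2 members called. Fewer samples enter these fits, and the cause of the differences was not tested. The log2 fold change kept its sign in all 18 alternatives for MMP1 (4.16 to 5.00), TIMP1 (-1.59 to -1.27), MMP10 (0.93 to 2.18), MMP14 (0.25 to 0.47) and ADAM17 (-0.21 to -0.02).

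Some values that did not pass changed sign. With library totals alone MMP15 was at -0.0269, TIMP2 at -0.0637 and ETS1 at -0.0303. TIMP2 was at -0.00534 with at least 1 CPM in 3 libraries and at -0.00023 without mitochondrial genes and small structured RNAs. ADAM9 was at 0.00894 with DESeq2 size factors, 0.00895 with the DESeq2 test, 0.00573 with joined transcript rows, 0.0261 with no filter, 0.00253 with the length offset and 0.0186 and 0.0185 with TPM pseudocounts of 1 and 0.1. With these pseudocounts FOSL1 was at 0.0189 and 0.0188, and DCUN1D5, which ranged from -1.42 with the smaller pseudocount, at 0.29 with joined rows. Leaving out 1 library gave -0.17 to 0.36 for MMP15, -0.13 to 0.22 for TIMP2, -0.112 to 0.0984 for ADAM9, -0.0731 to 0.197 for ETS1, -0.19 to 0.15 for FOSL1, -0.514 to 0.0950 for DCUN1D5, -0.10 to 0.43 for DYNC2H1, -0.374 to 0.0451 for YAP1 and -0.188 to 0.0379 for F2R.

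Replicate numbers are shared between the groups, but deviations of same-numbered libraries correlated at 0.13, -0.04 and 0.01, so the numbers were not taken as pairs. With the replicate block 14 genes and 1 member (MMP1) were called. At this depth 3 reads are 0.143 to 0.157 CPM (without TMM factors), which limits MMP2, MMP3 and TIMP3.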

Other observations

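Some genes of the lists that were too low or too uneven to be called, chosen after their values were seen, differed in reads between the groups. ADAMTS9, a protease of the proteoglycan-cutting group, had 7.6, 5.0 and 8.6 reads in WT 1, 2 and 3 and 0 in all 3 KO libraries. ADAMTS3, a procollagen peptidase, had 0, 2 and 1.2 reads in WT and 2, 42.3 and 32.2 in the KO, where ZNFX1 KO 1 was near the WT level. EPCAM, an epithelial adhesion molecule from the list of ovarian carcinoma markers, was at 1.58, 1.72 and 0.228 CPM in WT and had 0 reads in the KO. A second coding transcript of TIMP1, listed on a row of its own, had 4.4, 14.7 and 2.6 reads in WT and 0 in the KO. These values rest on few reads and were not tested.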
